A study of Schizosaccharomyces pombe with 36 samples.

Results

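The genes described here are gdt1 (SPAC186.05c) and the 7 other listed genes whose systematic names begin with SPAC186, all from 1 cloned stretch (cosmid) near an end of chromosome I of the fission yeast Schizosaccharomyces pombe. They were chosen by position around gdt1, and gdt1 itself was chosen because its RNA was low in 3 mutant strains, so its levels in the mutants are given as a description without a test. All 8 were found among the 5129 genes of the count table. A ninth gene of the cosmid, SPAC186.04c, lies beside gdt1 and is described with them as an adjacent gene. Counts of neighbours below are of the 7 listed genes and leave SPAC186.04c out. The question was whether the low gdt1 RNA was local to gdt1 or regional. In the strains tra1-spTra2, tra1-scTra1 and spt20-TID, every culture held less RNA than every WT culture of SPAC186.04c, gdt1, SPAC186.06, pdc102 (SPAC186.09) and the next gene toward the chromosome end, SPAC750.01. Among the neighbours and adjacent genes, edgeR's quasi-likelihood test called SPAC750.01 lower in all 3 strains, SPAC186.04c in tra1-spTra2 and spt20-TID, and SPAC186.06 in tra1-spTra2. pdc102 had too few counts for that test, and SPAC186.07c and SPAC186.08c were near 0 in WT too. On the centromere side, the mean level of pfl9 (SPAC186.01) was higher than in WT in all 3 strains, though edgeR called it in none. SPAC186.02c and SPAC186.03 had no counts in WT, so neither could have been lower in a mutant.

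The series profiled polyadenylated RNA in 36 libraries, 3 cultures in each of 12 conditions, all in the rich medium YES at mid-logarithmic growth. The WT strain was set beside 5 mutants: tra1D and spt20D, which lack the gene, spt20-TID (genotype spt20-HITD-PK3), in which Spt20 carries an epitope tag and lacks its HIT region, and tra1-spTra2 and tra1-scTra1, whose Tra1 carries, over a short stretch, the sequence of Tra2 or of the Tra1 of Saccharomyces cerevisiae. A second experiment used strains carrying the β-estradiol-activated recombinase cre-ER: creER (cre-ER alone), tti2-CKO (cre-ER lox-tti2-lox) and tra2-CKO (cre-ER lox-tra2-lox), each grown with DMSO or β-estradiol, for 18 h (tti2-CKO) or 21 h (creER and tra2-CKO). The labels give 1 strain number to each genotype, so the 3 cultures of a condition are repeats of 1 strain, and strain differences other than the named allele cannot be told apart from it.

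Gdt1 proteins form a conserved family of Golgi membrane transporters, TMEM165 in humans, that move calcium and manganese, the latter a cofactor of Golgi glycosylation enzymes. Genes close to fission yeast telomeres lie in subtelomeric chromatin, which is known for low and variable expression and for families of near-identical genes. Tra1 is the large activator-binding subunit of the co-activator SAGA, anchored there by the HIT region of Spt20, Tra2 is its counterpart in the co-activator NuA4, and Tti2 belongs to the TTT cochaperone that helps both proteins fold.

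Libraries held 4811942 to 9724398 counts. Levels are given as counts, or as CPM (counts per 1000000, after scaling the libraries by the TMM method). The targeted genes matched the labels: tti2 and tra2 were lower in every β-estradiol library of their strain than in every DMSO library, tra1 was between 0.270 and 0.757 CPM in tra1D against 93.3 to 102 in WT, and spt20 was between 3.51 and 5.10 CPM in spt20D against 36.4 to 44.7 in WT. In tra1-spTra2 and tra1-scTra1, tra1 RNA was between 95.7 and 108 CPM, and in spt20-TID spt20 RNA was between 24.2 and 33.4 CPM. Of the 8 genes, 7 shared none of their 50-base windows with other places of the reference genome. SPAC186.03 shared 62.0% of them, so its counts are uncertain.

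gdt1 was the most abundant of the 8 in WT, at 62.4 CPM per kilobase of gene against 8.16 for pfl9 and 3.36 for SPAC186.06. The 3 WT cultures held 723, 643 and 505 gdt1 counts. tra1-spTra2 held 2, 2 and 4, tra1-scTra1 held 18, 19 and 49, and spt20-TID held 23, 1 and 2. None of these 9 mutant cultures approached a WT culture, and the highest of them was tra1-scTra1 replicate 3. In means the levels were 90.5 ± 5.98 CPM in WT (SD, n = 3, as for the following), 0.409 ± 0.244 in tra1-spTra2, 4.48 ± 2.28 in tra1-scTra1 and 1.42 ± 2.05 in spt20-TID. The fitted log2 differences from WT were −7.81, −4.29 and −6.003. In these bulk cultures, fewer cells with gdt1 RNA and less gdt1 RNA per cell cannot be told apart.

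The deletion strains differed between their cultures. tra1D held 148, 5 and 3 gdt1 counts, and spt20D held 192, 5 and 151. Thus tra1D replicate 1 and spt20D replicates 1 and 3 kept 22.4, 27.2 and 28.8 CPM, while tra1D replicates 2 and 3 and spt20D replicate 2 were below 1 CPM. The means, 7.90 ± 12.6 CPM in tra1D and 18.9 ± 15.7 CPM in spt20D, therefore describe no single culture. The log2 difference of tra1D from WT was −3.51, and −7.17 without replicate 1. That of spt20D was −2.26, and −1.70 without replicate 2. For spt20-TID the difference was −8.46 without its replicate 1, the culture with 23 counts.

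**Figure D1:**
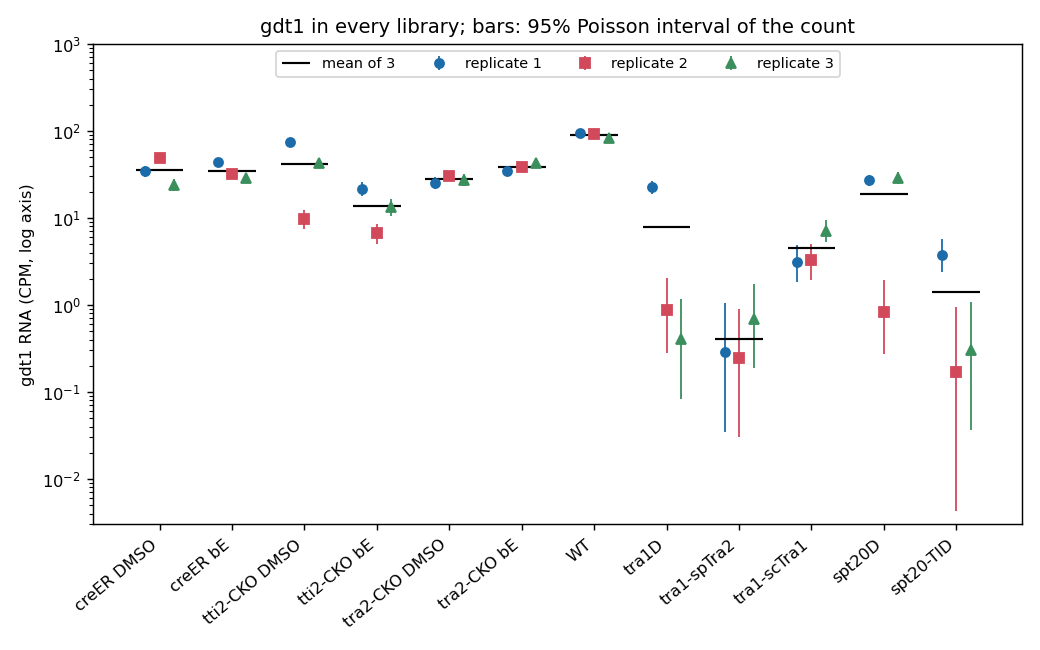
gdt1 RNA in CPM on a log axis (y) in each of the 36 libraries, by condition (x). Points are cultures, black lines the mean of 3, and bars the 95% Poisson interval of the count. The WT cultures, at 83.9 to 95.6 CPM, lie above all others, and the cultures of tra1D and spt20D spread from below 1 CPM to above 20 CPM.

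Ordered by mean level, WT (90.5 CPM) was followed by tti2-CKO in DMSO (42.2), tra2-CKO in β-estradiol (38.8), creER in DMSO (35.7), creER in β-estradiol (35.1), tra2-CKO in DMSO (27.8), spt20D (18.9), tti2-CKO in β-estradiol (13.9), tra1D (7.90), tra1-scTra1 (4.48), spt20-TID (1.42) and tra1-spTra2 (0.409). WT did not overlap the condition after it. Every other pair of neighbours in this order overlapped in the range of its 3 cultures. The DMSO cultures of the recombinase strains were below WT as well. These cultures keep tti2, tra2, tra1 and spt20, and differ from WT in strain, cre-ER and DMSO, which cannot be told apart. Their difference from WT was not tested. Within tti2-CKO in DMSO the cultures held 506, 66 and 294 gdt1 counts, the widest spread among the 6 conditions of the recombinase strains.

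On the telomere side of gdt1 lie SPAC186.06, annotated as an isomerase, SPAC186.07c, a hydroxyacid dehydrogenase, SPAC186.08c, an L-lactate dehydrogenase, and pdc102, a pyruvate decarboxylase. SPAC186.06 held 25, 31 and 14 counts in the WT cultures. It held 0, 1 and 0 in tra1-spTra2, 4, 0 and 4 in tra1-scTra1, and 0, 0 and 0 in spt20-TID. In these 3 strains no culture reached the lowest WT culture. In tra1D the gene held 8, 1 and 0 counts, and in spt20D 17, 0 and 5, so that the same cultures that kept gdt1 counts held the most SPAC186.06 counts.

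SPAC186.06 was lower in tra1-spTra2 than in WT by a rate ratio of 70.7 (counting interval 12.3 to 2833), with a log2 difference of −5.68 ± 0.68 (SE, adjusted p = 0.00120). It was called lower there, as was the adjacent SPAC186.04c, and was the 1 listed neighbour so called (a call needed an adjusted p no higher than 0.01 and a change of 1.5-fold or more), with 2 of the 7 neighbours passing the filter on low counts. Of all genes tested in that comparison, 3.71% were called and 2.61% were called lower. The adjusted p became 0.0103 without tra1-spTra2 replicate 1 and 0.0115 without its replicate 2, both just past the threshold. In spt20-TID SPAC186.06 was at least 21.1-fold lower (no counts, set against a floor of 3 over the group), and its adjusted p of 0.0270 missed the threshold. In tra1-scTra1 it was lower by a ratio of 7.90 (3.80 to 19.0, adjusted p = 0.0657), in tra1D by 7.46 (3.72 to 17.0, adjusted p = 0.0294) and in spt20D by 2.83 (1.73 to 4.80, adjusted p = 0.0943). edgeR called none of these 4. DESeq2 called SPAC186.06 lower in tra1D (adjusted p = 0.00149), tra1-scTra1 (0.00289) and spt20-TID (1.05e-05), and in spt20-TID it was also called with a replicate block (0.00358) and in 1 edgeR fit of all 36 libraries (0.00744). In tra1D its log2 difference was −2.83, and leaving out 1 library moved it between −2.18 (without replicate 3) and −5.16 (without replicate 1, which held 8 of the 9 counts). In spt20D it was −1.502, and moved between −0.94 (without replicate 2) and −2.87 (without replicate 1). These intervals and floors cover counting error only. The mutants share the WT libraries, so these comparisons are not independent of each other.

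None of the 7 listed neighbours was called in the other 4 comparisons with WT by edgeR's quasi-likelihood test (SPAC186.04c, not among them, was called in spt20-TID), where 2.47% (tra1D), 0.286% (tra1-scTra1), 12.8% (spt20D) and 0.368% (spt20-TID) of all genes tested were called. In each, 2 neighbours, pfl9 and SPAC186.06, passed the filter. At an unadjusted p under 0.05 there were 2 in tra1D, 2 in tra1-scTra1, 1 in spt20D and 2 in spt20-TID. DESeq2 called 2 in each of these 4 comparisons: pfl9 and SPAC186.06 in tra1D and tra1-scTra1, pfl9 and SPAC186.02c in spt20D, and SPAC186.02c and SPAC186.06 in spt20-TID. The shares above are those of the edgeR calls. Shares of all genes at the unadjusted threshold or with DESeq2 are not given, so those counts cannot be set against them.

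pdc102, whose product makes acetaldehyde from pyruvate, held 9, 8 and 4 counts in WT. It had no counts in any culture of tra1-spTra2 or spt20-TID and 0, 0 and 1 in tra1-scTra1. Every culture of these 3 strains was thus below every WT culture, at least 7.07-fold lower in tra1-spTra2, at least 6.34-fold lower in spt20-TID and by a ratio of 19.0 (3.05 to 784) in tra1-scTra1. In tra1D it held 2, 1 and 2 counts and in spt20D 5, 1 and 0. pdc102 did not pass the filter of the separate edgeR fits against WT. DESeq2 called it lower in tra1-spTra2 (adjusted p = 0.00286) and not in spt20-TID (0.0130), and 1 edgeR fit of all 36 libraries called it lower in both (0.00167 and 0.00398). Neither called it in tra1-scTra1, tra1D or spt20D (adjusted p 0.0623 to 0.185). SPAC186.08c held 4, 2 and 0 counts in WT and 0 to 9 in the mutant cultures, and SPAC186.07c 0 to 1 in WT and 0 to 4 in the mutant cultures. At this depth no difference in either was detectable.

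Between gdt1 and the centromere side lies SPAC186.04c, an uncharacterized protein gene. Its WT cultures held 27, 21 and 19 counts. tra1-spTra2 held none, spt20-TID held 0, 1 and 0, and tra1-scTra1 held 3 in each culture. In the deletion strains it held 9, 0 and 0 (tra1D) and 21, 0 and 9 (spt20D), highest in the cultures that kept gdt1. It was called lower in tra1-spTra2 (at least 22.6-fold, adjusted p = 0.00120) and in spt20-TID (ratio 60.7, 10.5 to 2433, adjusted p = 0.00997), the latter lost when any 1 of the 6 libraries was left out (adjusted p 0.0178 to 0.0724). In tra1-scTra1 the log2 difference was −2.69 ± 0.38 (SE, adjusted p = 0.0101, not called). In tra1D it was −2.78 ± 0.73 (adjusted p = 0.0396), and −7.46 (adjusted p = 0.00614) without replicate 1.

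pfl9, which encodes a cell-surface glycoprotein of the DIPSY family, stood the other way. It held 70, 58 and 81 counts in WT, 127, 177 and 77 in tra1-spTra2, 129, 104 and 129 in tra1-scTra1 and 95, 109 and 139 in spt20-TID. In tra1D it held 103, 143 and 123, and in spt20D 114, 148 and 78. In CPM, which takes account of depth, the mutant cultures lay above all WT cultures in 4 of the 5 strains, tra1-spTra2 being the exception. The means were 10.3 ± 2.75 CPM in WT (SD, n = 3) and 17.9 to 19.5 CPM in the mutants. The log2 differences were 0.89 ± 0.24 (SE) in tra1D, 0.82 ± 0.23 in tra1-spTra2, 0.94 ± 0.20 in tra1-scTra1, 0.85 ± 0.25 in spt20D and 0.83 ± 0.21 in spt20-TID. edgeR's separate fits called none, with adjusted p between 0.0248 and 0.0969. DESeq2 called pfl9 higher in tra1D, tra1-spTra2, tra1-scTra1 and spt20D (adjusted p 0.00331 to 0.00594), and 1 edgeR fit of all 36 libraries called it in spt20D (0.00905). Without WT replicate 3, the highest WT culture, pfl9 was called higher in tra1D, tra1-spTra2, tra1-scTra1 and spt20D (log2 1.05 to 1.16, adjusted p 0.00626 to 0.00972).

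SPAC186.02c, annotated as a hydroxyacid dehydrogenase, had no counts in the 3 WT cultures. It held 6, 11 and 5 in tra1-spTra2, 5, 8 and 6 in tra1-scTra1, 3, 16 and 14 in spt20-TID, 4, 8 and 4 in spt20D and 1, 2 and 3 in tra1D. All 15 mutant cultures thus had at least 1 count. Against the floor the rates were at least 7.26-fold, 7.01-fold, 12.1-fold, 5.997-fold and 2.08-fold higher, in the same order of strains. The gene did not pass the filter of the separate edgeR fits. DESeq2 called SPAC186.02c higher in tra1-spTra2 (adjusted p = 0.00244), spt20D (0.00433) and spt20-TID (0.00119), as did 1 edgeR fit of all 36 libraries (0.00329, 0.00230 and 0.000924). Neither called it in tra1-scTra1 or tra1D (0.0260 to 0.274). SPAC186.03, an L-asparaginase gene, was at 0 in WT and at 0 to 4 in the mutant cultures.

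**Figure D2:**
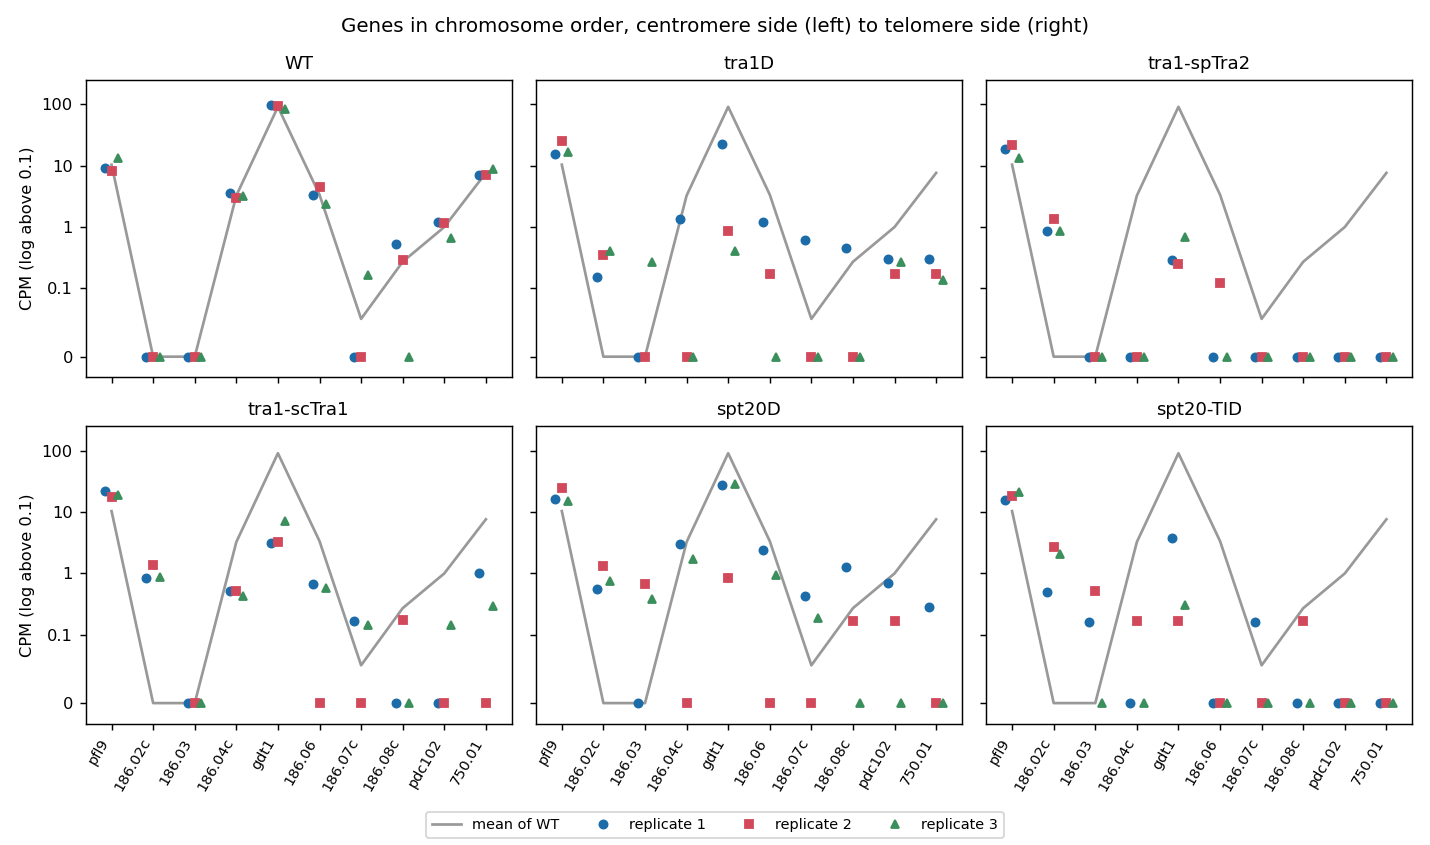
CPM (y, log scale above 0.1, linear below) of the 9 SPAC186 genes and SPAC750.01 (x, in chromosome order, names shortened to the number after SPAC), with 1 panel for WT and for each mutant. Points are the 3 cultures and the grey line is the WT mean. In tra1-spTra2, tra1-scTra1 and spt20-TID the points from SPAC186.04c to SPAC750.01 fall below the WT line except for some points of SPAC186.07c, which is near 0 in WT, while pfl9 and SPAC186.02c lie above it.

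Within the deletion strains the cultures can be read along the chromosome. In tra1D replicate 1 SPAC186.04c, gdt1 and the 4 telomere-side members summed held 9, 148 and 17 counts, against 0, 5 and 2 in replicate 2 and 0, 3 and 2 in replicate 3. In spt20D replicate 1 they held 21, 192 and 34, in replicate 2 0, 5 and 2, and in replicate 3 9, 151 and 6. The low cultures were low at all 3 places, and the cultures that kept gdt1 kept counts at all 3. This holds for the telomere-side sum and not for each of its members. pdc102 held 2, 1 and 2 counts in the tra1D cultures. In spt20D replicate 3, which kept gdt1, SPAC186.06 held 5 of the 6 summed counts, and pdc102 and SPAC186.08c held 0. SPAC750.01 also differed from the pattern of gdt1, since it was at 0 to 2 counts in all 6 cultures.

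**Figure D3:**
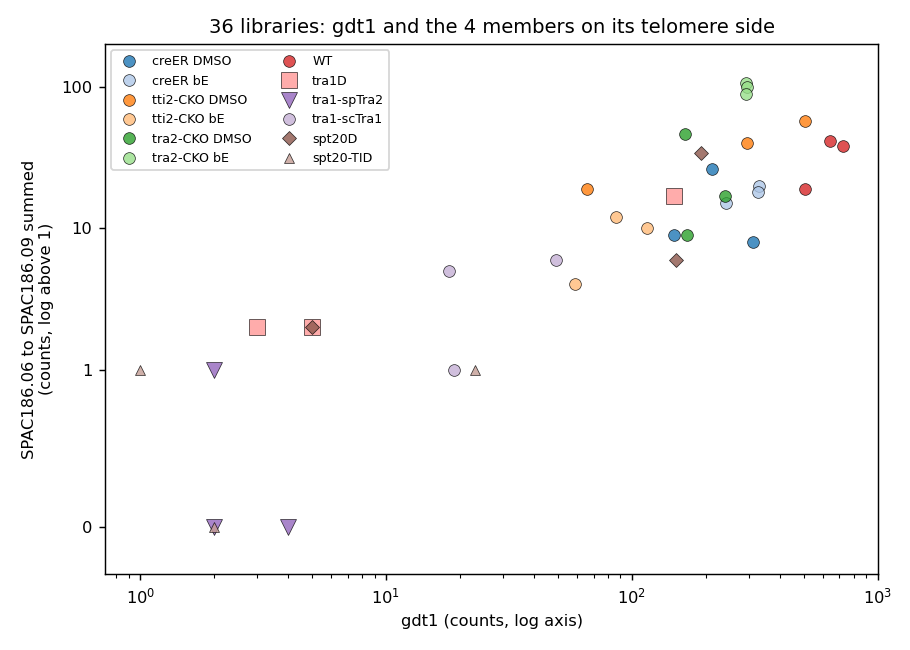
Counts of the 4 members on the telomere side of gdt1, summed (y, log scale above 1), against gdt1 counts (x, log axis), with 1 point for each of the 36 libraries, not scaled for depth. The cultures with at most 5 gdt1 counts held at most 2 summed counts, and the 9 cultures of tra1-spTra2, tra1-scTra1 and spt20-TID lie at the lower left.

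Beyond the cosmid, the reference lists 8 genes before the chromosome end. The first, SPAC750.01, of the aldo/keto reductase family, held 53, 50 and 52 counts in WT, none in any culture of tra1-spTra2 or spt20-TID, 6, 0 and 2 in tra1-scTra1, 2, 1 and 1 in tra1D and 2, 0 and 0 in spt20D. It was lower than in all WT cultures in each of the 15 mutant cultures, and it was called lower in all 5 strains, against 1.65% (tra1D), 2.61% (tra1-spTra2), 0.0817% (tra1-scTra1), 5.73% (spt20D) and 0.327% (spt20-TID) of all genes tested. SPAC750.01 was named because it was called in at least 2 of tra1-spTra2, tra1-scTra1 and spt20-TID, so its calls in these strains followed from the choice. The rate was at least 52.2-fold lower in tra1-spTra2 (adjusted p = 0.000328) and at least 46.8-fold lower in spt20-TID (adjusted p = 0.00686), and lower by a ratio of 17.5 in tra1-scTra1 (8.66 to 41.2, adjusted p = 0.00381), 37.2 in tra1D (14.2 to 138, adjusted p = 7.63e-05) and 68.9 in spt20D (18.8 to 574, adjusted p = 0.000183). SPAC750.01 shares 32.8% of its windows with other places, so reads of near-identical copies could not all be assigned. The other 7 genes did not pass the filter. One of them, ftm4 (SPAC750.05c), had 20 counts over the WT cultures and 0 to 2 over each mutant strain, but shares 92.4% of its windows.

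Toward the centromere, the 20 genes next to the cosmid showed no run of low genes. Between 12 and 15 of them passed the filter, and their median log2 difference from WT lay between −0.31 (spt20-TID) and 0.21 (spt20D), against −0.001 to 0.02 over all genes tested. Calls were 1 higher and 2 lower of 12 tested in tra1D, 2 lower of 13 in tra1-spTra2, and 2 higher and 2 lower of 15 in spt20D. There were none of 13 in tra1-scTra1 or of 12 in spt20-TID. Over all genes tested, 2.47%, 3.71%, 12.8%, 0.286% and 0.368% were called in these strains, in the same order. In tra1D, tra1-spTra2 and spt20D the called share of the genes next to the cosmid was thus above that over all genes, on few genes. None was called in 2 or more of tra1-spTra2, tra1-scTra1 and spt20-TID.

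Set directly against the deletion strains, the allele strains were not shown to differ in pfl9, which was the 1 neighbour that passed the filter in tra1-spTra2 against tra1D (log2 −0.06 ± 0.21 SE, adjusted p = 0.902), in tra1-scTra1 against tra1D (0.05 ± 0.19, adjusted p = 0.909) and in spt20-TID against spt20D (−0.01 ± 0.22, adjusted p = 0.978). Of all genes tested, 0.736%, 3.35% and 4.26% were called in these comparisons. For gdt1 the values are descriptive. The log2 difference of tra1-scTra1 from tra1D was −0.79, and it turned to 2.86 without tra1D replicate 1. The other tra1D cultures (0.873 and 0.405 CPM) were below every tra1-scTra1 culture (3.08 to 7.11 CPM). The difference of spt20-TID from spt20D was −3.73, and −6.19 without spt20-TID replicate 1.

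The β-estradiol comparisons did not enter the choice of gdt1 and were tested. In the control strain creER gdt1 was not shown to change, with 212, 311 and 148 counts in DMSO and 330, 325 and 241 in β-estradiol (35.7 ± 12.4 and 35.1 ± 8.33 CPM, SD, n = 3, log2 difference −0.03 ± 0.26 SE, adjusted p = 0.968). The libraries of the 2 treatments overlapped. pfl9, the 1 neighbour tested, differed by 0.41 ± 0.24 (adjusted p = 0.547), and 1.14% of all genes were called. The adjacent SPAC186.04c held 14, 12 and 12 counts in DMSO and 16, 5 and 10 in β-estradiol (log2 −0.73 ± 0.49 SE, adjusted p = 0.616). SPAC750.01 held 80, 71 and 42 counts in DMSO and 116, 263 and 169 in β-estradiol, without overlap in CPM, a ratio of 2.05 (1.73 to 2.43) that was not called (log2 1.00 ± 0.27 SE, adjusted p = 0.132).

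In tti2-CKO, SPAC186.06 was lower with β-estradiol. Its counts were 45, 15 and 34 in DMSO and 8, 2 and 8 in β-estradiol, with no overlap in CPM (4.58 and 0.990 CPM on average). The log2 difference was −2.36 ± 0.58 (SE, adjusted p = 0.00981), against 12.8% of all genes called and 7.13% called lower. The call was lost without any 1 of the libraries except DMSO replicate 2 (adjusted p up to 0.0477). gdt1 held 506, 66 and 294 counts in DMSO and 115, 59 and 86 in β-estradiol. The groups overlapped because of DMSO replicate 2, and the log2 difference of −1.67 ± 0.60 was not called (adjusted p = 0.0499). pfl9 differed by −0.77 ± 0.30 (adjusted p = 0.0707). The adjacent SPAC186.04c held 23, 4 and 13 counts in DMSO and 1, 2 and 5 in β-estradiol, overlapping in CPM, and did not pass the filter. Set against the creER response, the tti2-CKO responses of gdt1 (−1.62 ± 0.78, adjusted p = 0.217) and SPAC186.06 (−1.57 ± 1.02, adjusted p = 0.365) were not shown to differ. The tti2-CKO cultures were treated for 18 h and those of creER for 21 h, so strain and time cannot be told apart there.

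In tra2-CKO the changes that were called among the 7 neighbours ran upward. The 2 genes called were near 0 in DMSO and passed the filter on low counts only through their β-estradiol cultures. Neither could have been called lower, so the direction is no result. SPAC186.02c held 2, 0 and 0 counts in DMSO and 25, 14 and 16 in β-estradiol, a ratio of 24.8 (6.53 to 209, log2 4.42 ± 0.71 SE, adjusted p = 0.00209). pdc102 held 4, 1 and 1 counts in DMSO and 12, 12 and 18 in β-estradiol, a ratio of 6.30 (2.66 to 18.1, adjusted p = 0.00903). In both genes every β-estradiol culture was above every DMSO culture, and these 2 of the 7 neighbours were called higher, against 10.1% of all genes called and 7.71% called higher. pdc102 missed the threshold with the replicate number as a block (adjusted p = 0.0124) and without any 1 library except DMSO replicate 1 (adjusted p up to 0.0403). SPAC186.02c missed it without DMSO replicate 3 (0.0106) or β-estradiol replicate 1 (0.0127), and its log2 change moved between 3.79 (without DMSO replicate 2) and 7.17 (without DMSO replicate 1, which held both DMSO counts).

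SPAC186.06 held 41, 15 and 3 counts in tra2-CKO with DMSO and 88, 83 and 34 with β-estradiol, overlapping in CPM (log2 1.64 ± 0.61 SE, adjusted p = 0.0595). SPAC186.08c held 0, 1 and 4 counts in DMSO and 5, 4 and 37 in β-estradiol, with most of the counts in 1 culture, and was not tested. SPAC186.04c did not run upward. It held 2, 2 and 9 counts in DMSO and 3, 3 and 1 in β-estradiol, overlapping in CPM, and did not pass the filter. gdt1 held 165, 240 and 168 counts in DMSO and 292, 294 and 292 in β-estradiol. All 3 β-estradiol cultures were above the DMSO cultures in CPM (27.8 ± 2.49 and 38.8 ± 3.93, SD, n = 3), and the log2 difference of 0.50 ± 0.12 just missed the threshold (adjusted p = 0.0105). SPAC750.01 rose from 6.09 to 6.76 CPM in DMSO to 29.5 to 36.1 CPM, a ratio of 5.27 (4.38 to 6.39, log2 2.41 ± 0.14 SE, adjusted p = 1.97e-05). Set against its response in creER, this was larger by 1.39 ± 0.33 on the log2 scale, a difference that was not called (adjusted p = 0.0517). Set against the creER response, none of the 4 neighbours tested was called, nor was gdt1 (adjusted p between 0.157 and 0.936). For SPAC186.02c that difference was 1.94 ± 7.01 (log2, SE). Its creER cultures held 0, 0 and 0 counts in DMSO and 2, 0 and 0 in β-estradiol, too few for this test to decide. Of all genes tested, 0.384% were called different from creER in tra2-CKO, and 2.43% in tti2-CKO.

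**Figure D4:**
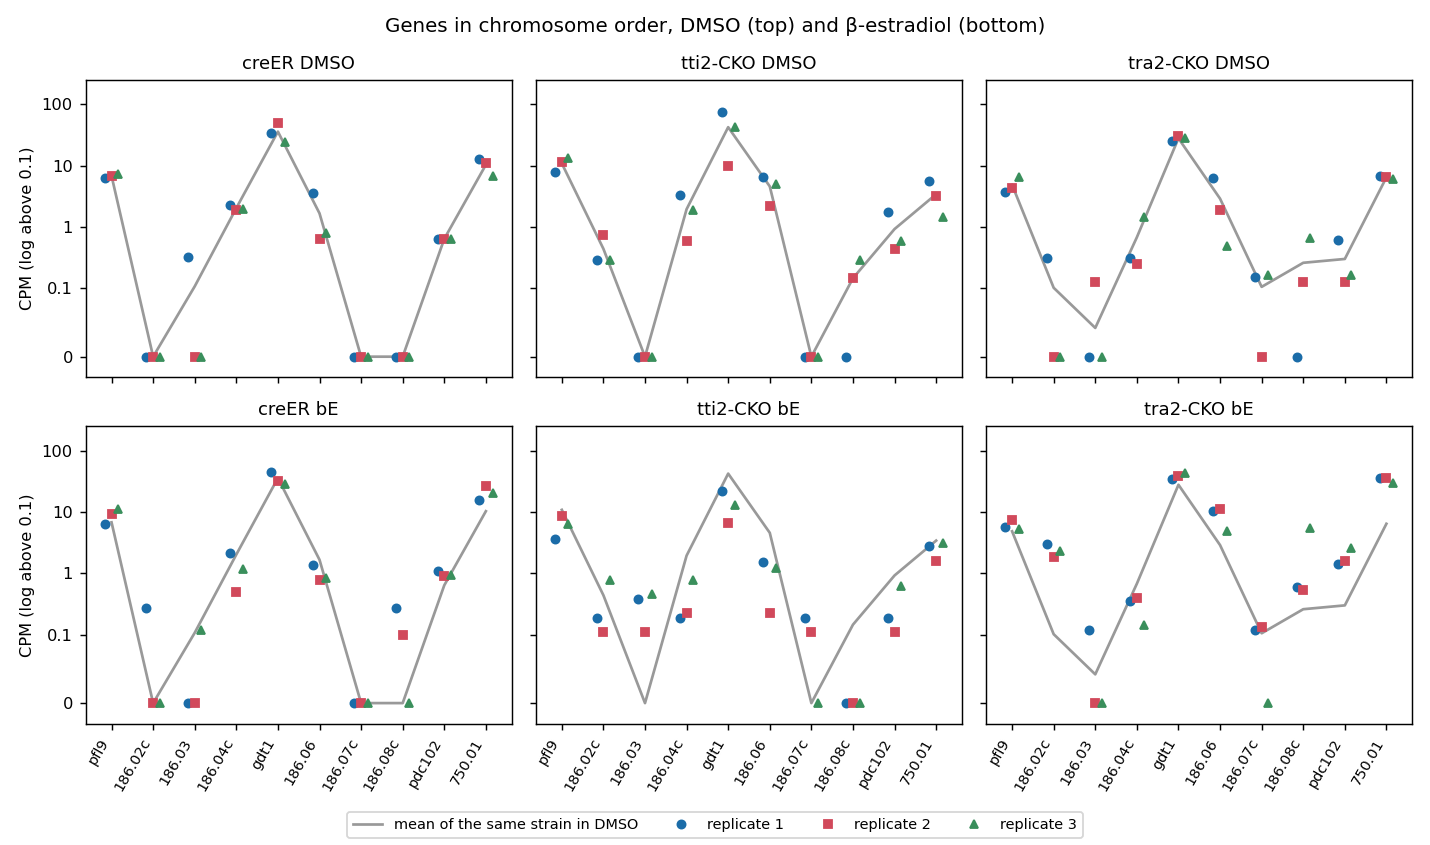
CPM (y, log scale above 0.1, linear below) of the 9 SPAC186 genes and SPAC750.01 (x, in chromosome order, names shortened to the number after SPAC) in creER, tti2-CKO and tra2-CKO with DMSO (top) and β-estradiol (bottom). Points are the 3 cultures and the grey line is the DMSO mean of the same strain. In tti2-CKO the β-estradiol points of SPAC186.06 fall below the line, and in tra2-CKO those of SPAC186.02c, pdc102 and SPAC750.01 rise above it.

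Among 4780 genes with a highest condition mean of at least 10 CPM, the 5 whose level over the 12 condition means was most like that of gdt1 were SPAC750.01 (Pearson r = 0.83), fyv4, a mitochondrial ribosomal protein gene (0.83), pyp1, a protein tyrosine phosphatase gene (0.80), rrp1, a DNA helicase gene (0.77), and SPAPB24D3.08c, an oxidoreductase gene (0.77). Over the 36 libraries SPAC750.01 also ranked first (0.75), fyv4, SPAPB24D3.08c and pyp1 ranked 2, 3 and 4, and rrp1 ranked 44. By Spearman correlation of the 12 means SPAC750.01 ranked 1 and SPAPB24D3.08c 3, while pyp1 ranked 10, rrp1 20 and fyv4 34. pfl9 ranked 4750 of 4780 (r = −0.71). These are descriptions over values that share conditions and depth, and that include the low mutant levels by which gdt1 was chosen.

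Other genes of calcium and manganese handling, or of Golgi glycosylation, were counted beside the share of all genes called. That share was 2.47% in tra1D, 3.71% in tra1-spTra2, 0.286% in tra1-scTra1, 0.368% in spt20-TID and 12.8% in spt20D. Of 14 calcium and manganese genes, all of them tested, none was called in tra1D, tra1-spTra2, tra1-scTra1 or spt20-TID, and 1 was called higher in spt20D. Of 21 Golgi glycosylation genes, 20 were matched and tested, with none called in those 4 strains and 2 higher in spt20D. Median log2 differences of both lists lay between −0.06 and 0.09, against −0.001 to 0.02 over all genes. Among 13 auxotrophic and mating genes, listed because strain backgrounds could differ, 11 were tested. Of these, 1 was called higher in tra1D, 1 higher in spt20D and none in the other 3 mutants, beside 2.47% (tra1D) and 12.8% (spt20D) of all genes. These genes also changed within a strain under β-estradiol. In tti2-CKO 4 were called higher and 1 lower of 13 tested, and in tra2-CKO 2 higher of 12 tested. None of 11 was called in creER. Of all genes, 12.8% (tti2-CKO), 10.1% (tra2-CKO) and 1.14% (creER) were called there.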

How the data were processed

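RNA was measured in 36 libraries of S. pombe. By the authors' account, polyadenylated RNA was made into stranded libraries, sequenced as single 50-base reads in 1 lane, trimmed, aligned with HISAT2 2.1.0 and counted per gene with HTSeq 0.9.1 in union mode, reverse stranded (versions from the submitters' processing notes). The deposited values are raw counts, not normalized, with 1 column per library and 0 columns unused. The genome build is not given in the sources used here. Names, gene order, lengths and shared 50-base windows come from ASM294v3, which matched 5111 of 5129 IDs, and no coordinates or sequences are given.

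edgeR 4.0.16 (R 4.3.3) was fitted to the libraries of each comparison separately (TMM, filterByExpr with a minimum count of 10, two-sided quasi-likelihood F-test, Benjamini-Hochberg adjustment over all genes tested). Responses of tti2-CKO (18 h) and tra2-CKO (21 h) were set against that of creER (21 h) as interaction terms. Calls needed an adjusted p no higher than 0.01 and a change of 1.5-fold or more. Level ratios are ratios of count rates with exact 95% intervals, and a group at 0 was set to a floor of 3 counts over the group. Totals of 4811942 to 9724398 counts leave genes with few counts imprecise. The study describes the samples as independent biological ones, and the labels give 1 strain per genotype, so p-values measure the spread between cultures of 1 strain.

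The genes and lists were chosen with earlier results of these data known. Named by rule were the 8 genes, SPAC186.04c, genes on either side called in at least 2 of tra1-spTra2, tra1-scTra1 and spt20-TID, and the 5 most like gdt1 by Pearson correlation of log2(CPM + 1). ftm4, SPAC869.01 and yhb1 were named after their values were seen. To check pairing, libraries of the same number were compared by how they departed from their group means, and every pair correlated above 0.1 in 4 of 11 comparisons: creER, tra2-CKO, tra1-scTra1 against WT and spt20D against WT. Alternatives were DESeq2 1.42.0, RLE normalization, no filter, 1 fit of all 36 libraries, a block for the replicate number, a minimum of 10 counts in every library, and fits that omit 1 library at a time. Fits of gdt1, SPAC186.04c, SPAC186.06 and pfl9 against WT, and of gdt1 between allele and deletion strains, under these settings were added after seeing the data.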

Additional observations from a re-analysis of the deposited data

Results flagged for a closer look

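The 4 members on the telomere side of gdt1, SPAC186.06 to pdc102 summed, moved in opposite directions under β-estradiol in 2 strains. In tti2-CKO the sum was 0.247 times its DMSO level (5.66 ± 2.76 CPM in DMSO and 1.40 ± 0.819 CPM in β-estradiol, SD, n = 3), with every β-estradiol culture below every DMSO culture. In tra2-CKO it was 3.64 times its DMSO level (3.57 ± 3.05 and 13.0 ± 0.317 CPM), with every β-estradiol culture above every DMSO culture. Different genes made up that sum. With β-estradiol SPAC186.06 held 88, 83 and 34 counts and SPAC186.08c held 5, 4 and 37. SPAC186.06 alone overlapped between the treatments in CPM, so the 4 members did not move as 1. The difference between these strains was not tested.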

How the results depend on the processing

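Counts of neighbours called, of 7, depended on the setting, and few counts stand behind most of these genes. Shares of all genes called under the alternative settings are not given, so these counts show only how the calls moved. In tti2-CKO the 1 call became 0 with RLE normalization, with no filter, with at least 10 counts in every library and in 1 fit of all libraries. In tra2-CKO the 2 calls became 1 with no filter, 0 with at least 10 counts in every library and 1 with the replicate block. In tra1-spTra2 against WT the 1 call became 4 with DESeq2, 0 with at least 10 counts in every library and 3 in 1 fit of all libraries. The 0 calls became 2 with DESeq2 in tra1D, tra1-scTra1, spt20D and spt20-TID against WT, 2 in 1 fit of all libraries in spt20D, and 1 with the replicate block and 3 in 1 fit of all libraries in spt20-TID. Leaving out 1 library gave 0 to 1 calls in tti2-CKO, 0 to 3 in tra2-CKO, 0 to 1 in tra1D, 0 to 2 in tra1-spTra2, 0 to 1 in tra1-scTra1 and 0 to 1 in spt20D. In the other 7 comparisons it left the count at 0. The replicate block changed no other count, and the cause of these differences was not tested. No fitted log2 difference of gdt1, SPAC186.04c, SPAC186.06 or pfl9 from WT changed sign. That of gdt1 between tra1-scTra1 and tra1D did, from −1.38 to 2.86 as 1 library was left out, the latter without tra1D replicate 1. CPM by total counts without TMM moved 2 of 108 condition means by more than their SD, gdt1 in WT (83.9) and in tra2-CKO with β-estradiol (43.0).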
